A study of Mus musculus with 17 samples.

Results

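Mural nuclei are the nuclei of the cells that wrap brain vessels, pericytes on capillaries and smooth muscle cells on arterioles. They were chosen by their own RNA among the nuclei that the deposited annotation labels vascular, by summing raw UMIs (unique molecular identifiers, each counting 1 captured RNA molecule) over 3 lists of 6 genes. A nucleus was kept when the mural list (Vtn, Pdgfrb, Rgs5, Atp13a5, Notch3 and Abcc9) had 2 or more UMIs and led both the endothelial list (Flt1, Cldn5, Mecom, Adgrl4, Ptprb and Slco1a4) and the fibroblast-like list (Slc6a13, Bnc2, Dcn, Col1a1, Col1a2 and Ranbp3l). The rule kept 380 of 1226 vascular nuclei, out of 284074 nuclei in all. Rules built the same way for the other lists gave 183 endothelial and 545 fibroblast-like nuclei, and 118 vascular nuclei fell in no set. Since these genes chose the nuclei, their levels are a description and were not tested between kinds of nucleus.

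The nuclei came from the posterior brain of 17 female mice, 2.3 months old, of a human TfR (transferrin receptor) knock-in strain and homozygous for that allele, which the saline animals carried too. The animals received saline (n = 4), Malat1 ASO, a free antisense oligonucleotide against Malat1 (n = 4), anti-TfR:Malat1, the oligonucleotide on an antibody to TfR (n = 6), or OTV:Malat1, the oligonucleotide on the OTV vehicle (n = 3). All groups were dosed intravenously 4 times over 24 days, at 50 mg per kg for both conjugates and at 2 mg per kg for the free oligonucleotide, which the series describes as the matching oligonucleotide dose. The last dose preceded tissue collection by 72 hours. The design asks how the form of delivery changes the RNA target, and p-values measure the spread between these samples.

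Pericytes share the capillary basement membrane with the endothelium, are recruited by PDGF-BB through the receptor Pdgfrb, and help keep the blood-brain barrier closed. Smooth muscle cells contract through actin and myosin and set the width of arterioles. Malat1, a long noncoding RNA, is retained in nuclei, where an antisense oligonucleotide can recruit RNase H to cleave it. In GRCm38 it lies on chromosome 19 at 5795690 to 5802672, on the minus strand (GENCODE M21).

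The members were small samples of each animal, from 12 nuclei in anti-TfR:Malat1 replicate 2 to 46 in saline replicate 1, with 391830 UMIs in all. A mural nucleus held a median of 911 UMIs (503 to 3819) and 641.5 genes, against a median of 1091 UMIs in endothelial, 1265 in fibroblast-like and 4614 in neuronal nuclei. Medians per animal ran from 704 to 1088.5 UMIs and, with batch ignored, differed between groups by at most 14.96 UMIs (4 comparisons, exact p 0.895 or more). Within the deposited batches, medians lay above saline by 65 UMIs with OTV:Malat1, 42.3 with anti-TfR:Malat1 and 6.5 with Malat1 ASO (exact p 0.667 or more). The authors called 18 of the members doublets (4.74%, against 16.8% of all nuclei). The authors' cluster 14 at resolution 0.4 held 372 members (97.9%), among 7405 nuclei. The barcodes of 25 members (6.58%, against 7.16% of all nuclei) also occurred in another library, and no barcode was shared between members.

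The mural list summed to a median of 9 UMIs in a member (2 to 60), and 256 members had no UMI of either other list. At the edge of the rule, 12 members held 2 mural UMIs and 20 vascular nuclei with 1 UMI were left out. Malat1 took 10.2% of UMIs in the former and 10.3% in the latter, all groups pooled. A lead of 1 UMI kept 8 members, and 7 nuclei tied with another list were left out. Among nuclei with other labels 1243 met the same counts, 918 of them neurons and 313 astrocytes. Their median was 2 mural UMIs in 5488 UMIs per nucleus, and they are not members.

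Of the 6 rule genes, 5 were higher in mural than in endothelial nuclei of the same animal in all 16 animals with 5 or more endothelial nuclei, and Rgs5 was in 9 of 16. Endothelial nuclei were kept where their list led the mural list, so the choice of both kinds largely sets these counts. Levels are in CPM, a gene's UMIs per 1000000 UMIs of the nuclei of a kind, as means over animals. They are not scaled to gene length, so each gene was compared between kinds of nucleus and not with other genes. Atp13a5, a P5-type ATPase known as a brain pericyte marker, stood at 4301 CPM ± 911 (SD, n = 17) in mural nuclei, 237 in endothelial and 56.7 in fibroblast-like nuclei. Pdgfrb stood at 1505 ± 295 CPM in mural nuclei, 94.1 in endothelial and 184 in fibroblast-like nuclei. Vtn, the secreted adhesion protein vitronectin, ranged from 901 to 3679 CPM over the 17 animals and stood at 539 CPM in endothelial nuclei. Abcc9, the regulatory subunit of the vascular potassium channel opened when ATP is low, stood at 1019 ± 323 CPM in mural nuclei and at 77.9 in endothelial nuclei. Notch3, the Notch receptor of mural cells, stood at 926 ± 238 and 64.2 CPM in the same kinds. Rgs5, a regulator of G-protein signalling, separated them least: 877 ± 331 CPM in mural and 791 CPM in endothelial nuclei.

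The label was checked with 4 pericyte genes outside the rule (Kcnj8, Higd1b, Cox4i2 and Ndufa4l2) and 8 smooth muscle genes (Acta2, Myh11, Tagln, Cnn1, Myl9, Lmod1, Myocd and Pln). A UMI of the pericyte genes was found in 139 members (36.6%) and one of the smooth muscle genes in 67 (17.6%). Pericyte genes led in 117 members, smooth muscle genes in 35, and neither led in 228. With Abcc9 and Atp13a5 added, which the rule used to choose the nuclei, pericyte genes led in 353 members and smooth muscle genes in 5, a split that the choice of nuclei largely sets.

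**Figure D1:**
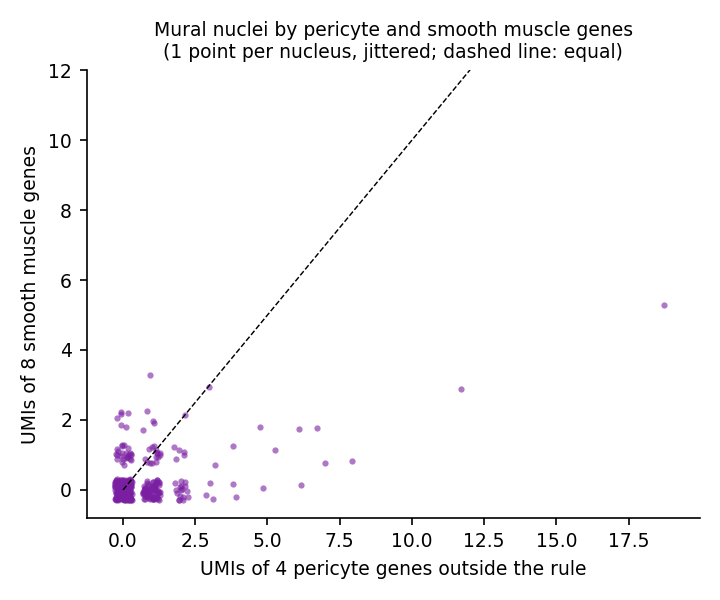
UMIs of 4 pericyte genes outside the rule (x axis) and of 8 smooth muscle genes (y axis) in each of the 380 mural nuclei, jittered so that nuclei with equal counts can be seen. Most nuclei lie at 0 or 1 on both axes, 117 lie below the dashed line with more pericyte UMIs and 35 above it, and 1 nucleus holds 5 smooth muscle UMIs.

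Genes of contractile smooth muscle gave few UMIs, and of the list of 15 such genes 11 (73.3%) had a higher and 2 a lower mean level in mural than in endothelial nuclei, against 49.9% higher among the 16530 genes with a UMI in either kind. Acta2, smooth muscle actin, gave 1 UMI in all members, Tagln, the actin-binding protein transgelin, gave 2, and Cnn1 (calponin) and Myocd (the smooth muscle coactivator myocardin) gave 0. Myh11, the smooth muscle myosin heavy chain, gave 20 UMIs in 18 members, Myl9, a myosin light chain, 60 UMIs, and Mylk, the myosin light chain kinase, 115 UMIs. Myh11 stood at 53.4 CPM against 2.32 in endothelial nuclei, and Mylk at 268 against 34.5. Outside the members, 5 of the other 846 vascular nuclei held 3 or more UMIs of the smooth muscle list, and 4 members did. The smooth muscle part of the label thus rests on few UMIs, and the set is called mural below.

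Genes outside the rule were ordered by the ratio of their mural level to that in nuclei without the vascular label. Among 583 genes with a UMI in at least 20% of members, the leaders were Carmn, a long noncoding RNA of smooth muscle and mural cells (475 ± 196 CPM against 0.121), and Kcnj8, the pore of the channel that Abcc9 regulates (257 ± 173 against 0.0714). Tbx3os1, an RNA antisense to Tbx3, stood at 930 ± 204 against 0.383 CPM. The sources used here do not give whether counting used strand, so its reads and those of an overlapping gene may not be told apart. Slc38a11, of an amino acid transporter family, stood at 1180 ± 374 against 1.08 CPM. Slc6a20a, an imino acid transporter, stood at 1556 ± 586 against 1.60 CPM, and fibroblast-like nuclei held it at 1560 CPM. Others among the 25 leaders were Morrbid, Nid1, Lamc3, Rbpms, Itga1, Egflam, Ggt5, Ednra, Slc16a12, Dock6, Colec12, Uaca, Ano1, Cped1, Mill2, Cgnl1, Phldb2, Igfbp7 and Gjc1. Fibroblast-like nuclei held more of Cped1 (2668 CPM against 926 in mural nuclei), Uaca (402 against 301) and Mill2 (288 against 272). Endothelial nuclei held more of Igfbp7 (1130 against 878) and Cgnl1 (466 against 359). The rest of these others were higher in mural than in endothelial or fibroblast-like nuclei. Ednra, the endothelin receptor that mediates constriction, stood at 351 CPM against 1.88. Gjc1, the gap junction protein connexin 45, stood at 378 against 3.55 CPM.

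Relative to the endothelial and fibroblast-like nuclei together, the leader was Slc38a11, at a ratio of 78.2. Sntb1 (679 CPM, ratio 43.8) and Ano1, the calcium-activated chloride channel of contractile cells (704 CPM, ratio 32.4), came next. Lin7a, Morrbid, Art3, Trpc4, Tbx3os1, Kcnj8, Pde8b, Pde3a, Plxdc1, Gucy1b1 and Rgs6 were also among the 15 leaders, of which 5 were among the 25 above. Of these, Pde8b (3776 ± 790 CPM, ratio 17.4) and Pde3a (408 ± 168 CPM, ratio 16.9) are phosphodiesterases, and Gucy1b1 (523 ± 147 CPM, ratio 15.7) is a subunit of the nitric oxide receptor guanylate cyclase. Trpc4 and Lin7a were less particular to vessels: neurons held Trpc4 at 100.4 CPM and Lin7a at 184 CPM, against 377 and 592 CPM in mural nuclei. Rgs6 stood at 860 CPM in mural nuclei, at 553 in neurons and, higher, at 1178 in astrocytes.

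**Figure D2:**
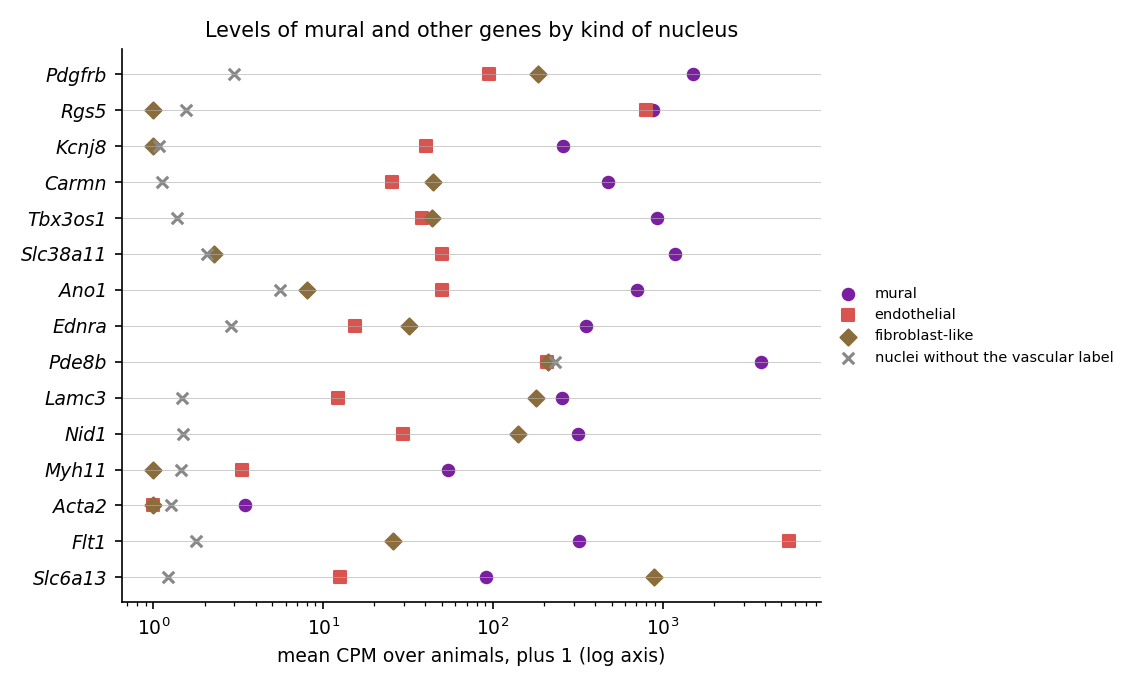
Mean CPM over animals, plus 1, on a log axis, for 15 genes in mural, endothelial and fibroblast-like nuclei and in nuclei without the vascular label. Pde8b lies at 3776 CPM in mural nuclei and at 208 and 209 in endothelial and fibroblast-like nuclei, and Rgs5 has nearby marks in mural and endothelial nuclei, at 877 and 791 CPM.

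Lists of pathway genes were set beside endothelial nuclei by their mean levels, with no test. Of 16530 genes with a UMI in either kind of nucleus, 49.9% had a higher mean level in mural nuclei, and of the 589 with a UMI in at least 20% of members, rule genes included, 76.6% did. Of 24 genes of vessel tone and calcium, all had a UMI and 22 (91.7%) had a higher mean level in mural than in endothelial nuclei. Prkg1, the cyclic GMP kinase that relaxes muscle, stood at 4089 ± 705 CPM, against 1875 in endothelial nuclei. Cald1 (caldesmon, an actin regulator) stood at 2526 ± 469 against 365, and Cacna1c, the L-type calcium channel, at 1747 ± 369 against 148. Set beside neurons and not endothelial nuclei, Kcnma1 and Ryr2, channels of muscle and neurons, stood at 67.3 and 48.4 CPM in mural nuclei. Neurons held them at 1485 and 806 CPM, and held Cacna1c at 828 CPM.

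All 14 matched pericyte genes outside the rule had a UMI and a higher mean level than in endothelial nuclei, with Ebf1, a transcription factor, at 3643 ± 651 CPM against 2102 in endothelial nuclei, and Cspg4, the proteoglycan NG2, at 261 against 39.7. Beside fibroblast-like nuclei the list was mixed. Ebf2 (12.3 CPM in mural, 133 in fibroblast-like nuclei) and Anpep (61.1 and 77.4) were lower in mural nuclei, and Slc6a20a was about equal (1556 and 1560). Ebf1 and Cspg4 stood lower in fibroblast-like nuclei, at 332 and 7.86 CPM. Of 19 basement membrane and integrin genes, 11 (57.9%) had a higher and 8 a lower mean level than in endothelial nuclei. Lama2 (1355 ± 386 CPM), Itga1 (939 ± 231), Lamc1 (696 ± 219) and Nid1 (316 ± 95.2) were higher than in endothelial nuclei (114, 511, 121 and 28.5 CPM). Among the lower ones, fibronectin (Fn1) stood at 9.82 against 526 CPM, Sparc, a matrix-binding protein, at 190 against 538 and the perlecan gene Hspg2 at 39.3 against 99.5. Of the 17 Notch and angiopoietin genes 7 (41.2%) were higher and 10 lower, and of 16 PDGF and TGF-beta genes 4 (25%) and 12. The Notch targets Heyl and Hey2 stood at 117 and 62.6 CPM, against 12.99 and 7.76 in endothelial nuclei, while Hey1 gave no UMI and the angiopoietin receptors Tek and Tie1 stood at 21.2 and 3.39 CPM, against 739 and 163 CPM. The ligand Pdgfb stood at 5.74 CPM in mural and 184 in endothelial nuclei. Of 9 transporters 7 were higher and 2 lower: Slc30a10, a manganese exporter, stood at 364 ± 138 against 12.6 CPM, and Slc2a1, the glucose transporter of the barrier, stood at 72.4 CPM against 1371. Of 12 injury and inflammation genes 1 was higher and 8 were lower, and Ccl2, Il6 and Mmp9 gave no UMI in any member. Tfrc, the mouse transferrin receptor gene, gave 11 UMIs in 8 members, 28.4 CPM ± 44.0 (SD, n = 17), and stood at 241 CPM in endothelial nuclei. It was at 0 in 9 of 17 animals.

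Markers of other cells were also found in the members. The summed list of 7 neuron markers stood at 1775 CPM, 13.9% of its level in neurons, and that of 6 oligodendrocyte markers at 2015 CPM, 12.3% of its level in oligodendrocytes. All 13 of these markers had a UMI. The astrocyte list stood at 180 CPM (2.18% of its own level, Aqp4 at 0) and the microglia list at 69.5 CPM (1.03%). The endothelial list, at 643 CPM, and the fibroblast-like list, at 227 CPM with Bnc2 and Col1a1 at 0, had to be low, since the rule chose nuclei in which the mural list led both. Of perivascular macrophage markers Mrc1, Cd163 and Lyve1 were at 0.

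Malat1 had a lower mean share in mural nuclei in all 3 treatments, by a modest amount, and no exact permutation test passed after adjustment. Malat1 took 13.7%, 12.1%, 14.3% and 10.9% of mural UMIs in saline replicates 1 to 4, and 11.2%, 10.7%, 12.8% and 9.18% in Malat1 ASO replicates 1 to 4. In anti-TfR:Malat1 replicates 1 to 6 it took 10.8%, 10.8%, 12.5%, 12.2%, 10.4% and 9.31%, and in OTV:Malat1 replicates 1 to 3 it took 10.4%, 10.6% and 9.33%. The group means, in the same order, were 12.8% ± 1.55 (SD, n = 4), 10.96% ± 1.501 (SD, n = 4), 10.99% ± 1.18 (SD, n = 6) and 10.1% ± 0.680 (SD, n = 3). The means of the treated groups were 85.9%, 86.2% and 79.2% of the mean of all 4 saline animals in that order. Saline replicate 4 was the lowest saline animal and lay within the range of the free oligonucleotide and anti-TfR:Malat1 groups.

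All 3 OTV:Malat1 animals lay below every saline animal, which 5.46% of the other 421 genes tested did in one direction or the other. The log2 difference was -0.33 (exact two-sided permutation p 0.0571, the smallest that 3 against 4 animals allow, adjusted p 0.257 over 6 comparisons). In anti-TfR:Malat1 4 of 6 animals lay below every saline animal, and 14.5% of genes had 4 or more animals beyond every saline animal on one side (log2 difference -0.21, exact p 0.0857, adjusted p 0.257). In Malat1 ASO 2 of 4 did, and 40.1% of genes had 2 or more such animals (-0.22, exact p 0.171, adjusted p 0.343). Groups without any overlap, which Malat1 did not show in those last comparisons, were found for 0.238% of genes with anti-TfR:Malat1 and 3.09% with Malat1 ASO. The treated groups overlapped one another, with log2 differences of -0.12 for OTV:Malat1 against anti-TfR:Malat1 (exact p 0.262, adjusted p 0.393), -0.11 against Malat1 ASO (exact p 0.4, adjusted p 0.48) and 0.0080 for anti-TfR:Malat1 against Malat1 ASO (exact p 1). None of the 6 passed the threshold of 0.05.

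The deposited metadata number 4 batches, each with 1 saline animal, and part of the spread lay between them. Saline stood at 13.7%, 12.1%, 14.3% and 10.9% in batches 1 to 4. Within batches all 13 treated animals lay below the saline animal, at 74.1% to 95.6% of it. Of the other 421 genes 0.95% did so, namely Tbx3os1, 9530026P05Rik, Pde4d and Ptprg, which were named after their values were seen. The log2 ratio to saline of the same batch was -0.43 to -0.22 with OTV:Malat1, -0.35 to -0.07 with anti-TfR:Malat1 and -0.30 to -0.16 with Malat1 ASO. Its medians were close, at -0.22, -0.21 and -0.22 in that order, and OTV:Malat1 had no animal in batch 1. For each group alone the background was 13.1%, 2.61% and 7.84% of genes in that order. Moving labels only within batches gave mean differences of -0.29 for OTV:Malat1 (exact p 0.25), -0.21 for anti-TfR:Malat1 (exact p 0.0556) and -0.22 for Malat1 ASO (exact p 0.125). Each p was the smallest that its batches allow.

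**Figure D3:**
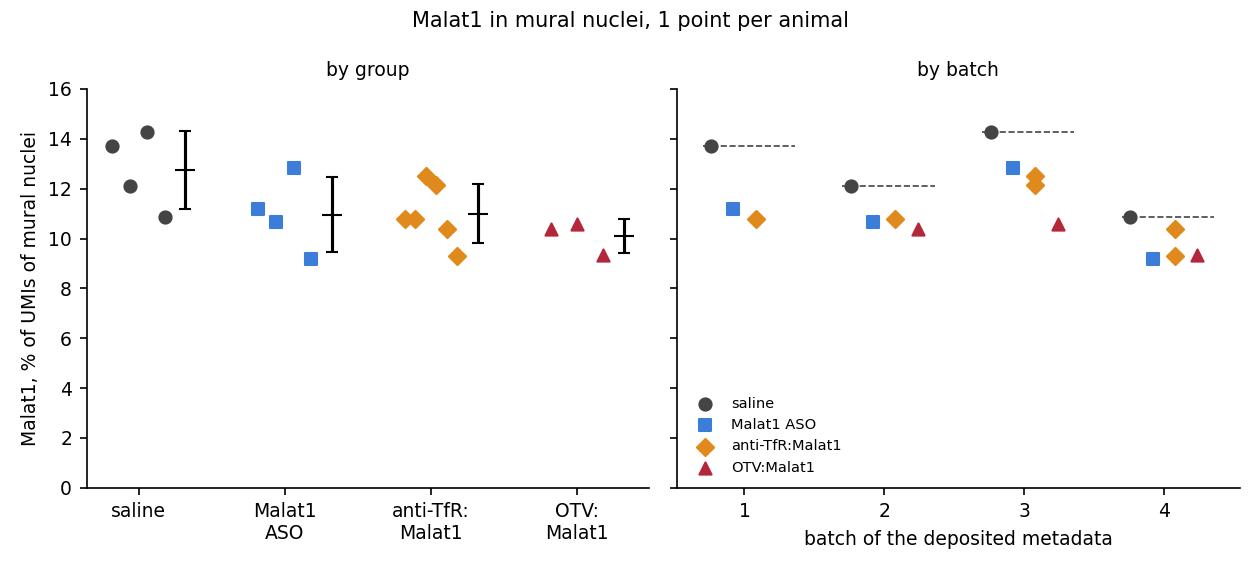
Malat1 as a percentage of the UMIs of mural nuclei, 1 point per animal. The left panel groups animals by treatment, with the mean and SD as bars, and the right panel by batch, with a dashed line at the saline animal. Every treated point lies under the dashed line of its batch, and the lowest saline animal, at 10.9%, is in batch 4.

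A fit across all genes gave the same direction. With edgeR's quasi-likelihood test and no batch term the log2 changes were -0.33 (SE 0.135, adjusted p 0.861) for OTV:Malat1, -0.26 (SE 0.113, adjusted p 0.857) for anti-TfR:Malat1 and -0.22 (SE 0.124, adjusted p 0.847) for the free oligonucleotide. Once batch was added as a block, edgeR gave -0.32 (SE 0.0410, adjusted p 3.79e-05), -0.26 (SE 0.0339, adjusted p 5.71e-05) and -0.22 (SE 0.0369, adjusted p 0.00212), and called 0% of the other 421 genes. In that fit OTV:Malat1 minus anti-TfR:Malat1 was -0.06 (SE 0.0376, adjusted p 0.993). The blocked calls were lost in the 155 nuclei of 1000 or more UMIs (edgeR adjusted p 0.456, 0.801 and 0.792 in the same order). That of Malat1 ASO was also lost without saline replicate 3 (adjusted p 0.0659), without its own replicate 4 (0.0914) and with 4 or more mural UMIs (0.249), and that of OTV:Malat1 with no filter on low counts (0.0579).

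Markers of other cells were summed in the same animals, without a test. The oligodendrocyte list was higher than in the saline animal of the batch in 12 of 13 treated animals, all but anti-TfR:Malat1 replicate 3. Its mean was 1271 CPM with saline, 2271 with OTV:Malat1, 2002 with anti-TfR:Malat1 and 2588 with Malat1 ASO, although the ranges overlapped. It summed to 222 to 1977 CPM over saline animals, 1505 to 2991 with OTV:Malat1, 992 to 3832 with anti-TfR:Malat1 and 1383 to 3912 with Malat1 ASO. The 222 CPM was of saline replicate 4, in batch 4, on 13519 mural UMIs of all genes. The other saline animals stood at 1343 to 1977 CPM. The share of all genes that lay above saline in as many treated animals was not counted. The endothelial list stood at 204 to 659 CPM with saline, 168 to 1494 with anti-TfR:Malat1 and 181 to 2190 with Malat1 ASO. With OTV:Malat1 it stood at 288, 3136 and 347 CPM in replicates 1 to 3. In each treated group 1 animal lay above every saline animal on this list: OTV:Malat1 replicate 2, anti-TfR:Malat1 replicate 6 and Malat1 ASO replicate 4. Within batches the endothelial list was higher than with saline in 4 of 13 treated animals, the neuron list in 5 and the astrocyte list in 8. Oligodendrocyte nuclei in OTV:Malat1 held Malat1 at 1.497% to 1.90% of UMIs. The part of these RNAs in the lower Malat1 of mural nuclei was not tested.

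Malat1 was also compared nucleus by nucleus. Each nucleus was thinned at random to 500 UMIs, and the median Malat1 count of the pooled nuclei was 66 for saline, 54 for OTV:Malat1, 55 for anti-TfR:Malat1 and 55 for Malat1 ASO. The 10th to 90th percentiles spanned 48 to 85.8, 32.4 to 75, 42.4 to 73.6 and 39.8 to 78 in that order. Saline replicate 1 gave 46 of the 103 saline nuclei. Medians per animal overlapped between groups, at 69, 56, 72 and 55 in saline replicates 1 to 4, 45.5 to 57.5 with OTV:Malat1, 48.5 to 65 with anti-TfR:Malat1 and 46.5 to 66 with Malat1 ASO. Within batches the median lay below that of the saline animal in 2 of 3 (the other tied), 6 of 6 and 3 of 4 treated animals in that order, and the lower quartile in 3 of 3, 5 of 6 and 3 of 4. No mural nucleus of the 380 was at 0. The lowest was 1 nucleus of OTV:Malat1 replicate 2, with 5 of 500 UMIs, and the lowest saline nucleus had 26.

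Nuclei under 48 thinned UMIs, the 10th percentile in saline, made up 2.17%, 4.76%, 11.8% and 21.1% of mural nuclei in saline replicates 1 to 4. In Malat1 ASO they made up 20%, 34.8%, 17.4% and 55.6%, and in OTV:Malat1 34.5%, 13.6% and 54.5%. The 6 anti-TfR:Malat1 animals ran from 6.67% to 40.0%. The highest animal of each group was of batch 4, though the other anti-TfR:Malat1 animal of that batch, at 26.7%, lay below replicate 2 of batch 2, at 33.3%. Their mean share was 9.94% ± 8.44 (SD, n = 4) with saline, 34.2% ± 20.5 (SD, n = 3) with OTV:Malat1, 21.96% ± 13.8 (SD, n = 6) with anti-TfR:Malat1 and 31.9% ± 17.5 (SD, n = 4) with Malat1 ASO. The saline mean is set near 10% by the cut, which was drawn from saline nuclei and stayed fixed when labels were moved. Within batches the share lay above the saline animal in 3 of 3 OTV:Malat1, 4 of 4 Malat1 ASO and 4 of 6 anti-TfR:Malat1 animals. Moving labels only within batches gave differences of 21.7, 21.99 and 11.6 percentage points for these groups (exact p 0.25, 0.125 and 0.167, adjusted p 0.25, 0.222 and 0.222). The batches allow no exact p under 0.05 for any of these groups, so these tests could not pass. Without batches none of the 4 comparisons passed (exact p 0.0857 for Malat1 ASO, 0.114 for OTV:Malat1 and 0.162 for anti-TfR:Malat1 against saline, adjusted p 0.216 each, and 0.286 for OTV:Malat1 against anti-TfR:Malat1). For OTV:Malat1 against saline the smallest possible exact p there was 0.0571.

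**Figure D4:**
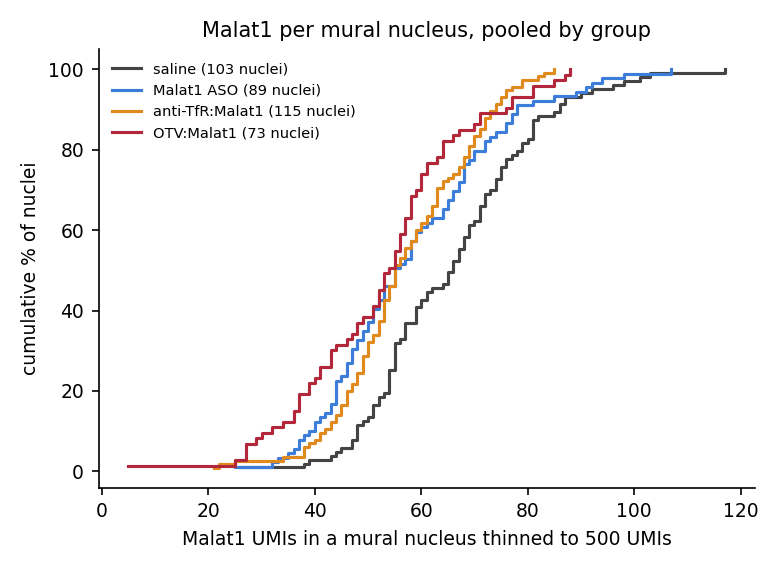
Cumulative percentage of mural nuclei (y axis) by their Malat1 UMIs after thinning to 500 UMIs (x axis), pooled over the animals of a group. The saline curve lies to the right, with a median of 66, and the 3 treated curves run close together, with medians of 54 and 55. Saline replicate 1 gave 46 of the 103 saline nuclei, and medians of single saline animals ran from 55 to 72.

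The margin of mural nuclei over other kinds of nucleus was compared within each animal, as a difference in log2 CPM of Malat1. In saline the margin was 0.84 ± 0.18 (SD, n = 4) over endothelial nuclei and 1.02 ± 0.21 (SD, n = 4) over neurons. It was 0.33 ± 0.13 (SD, n = 4) over oligodendrocytes and 0.29 ± 0.04 (SD, n = 4) over fibroblast-like nuclei. The 16 tests below are of changes in these margins between groups, and none passed after adjustment.

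Over endothelial nuclei, the margin stood at 1.57 ± 0.29 (SD, n = 3) with OTV:Malat1 and at 1.69 ± 0.32 (SD, n = 5) with anti-TfR:Malat1. The sixth anti-TfR:Malat1 animal, replicate 4, had only 3 endothelial nuclei and was left out. All 5 anti-TfR:Malat1 animals (difference 0.85, exact p 0.0159, adjusted p 0.127) and all 3 OTV:Malat1 animals (0.73, exact p 0.0571, adjusted p 0.152) lay above every saline animal, and both p-values were the smallest these numbers allow. In Malat1 ASO the margin was 1.15 ± 0.13 (SD, n = 4), and 3 of 4 animals lay above every saline animal (0.31, exact p 0.0571, adjusted p 0.152). These margins rest on 5 to 20 endothelial nuclei per animal. Between the conjugates, OTV:Malat1 minus anti-TfR:Malat1, the difference in margin was -0.12 (exact p 0.607, adjusted p 0.648), which did not pass.

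Over fibroblast-like nuclei the groups overlapped. The margin was 0.36 ± 0.08 (SD, n = 3) with OTV:Malat1, 0.29 ± 0.11 (SD, n = 6) with anti-TfR:Malat1 and 0.32 ± 0.05 (SD, n = 4) with Malat1 ASO, differences from saline of 0.07, -0.0050 and 0.03 (exact p 0.171, 0.867 and 0.314). Fibroblast-like nuclei also lay below saline within batches in 13 of 13 treated animals, at 73.9% to 92.8% of it. In the same batches Malat1 lay below saline in 12 of 12 animals in endothelial nuclei, in 12 of 13 in oligodendrocytes and in astrocytes, in 10 of 13 in perivascular macrophages, and in 9 of 13 in neurons and in microglia.

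Over oligodendrocytes the margin was 2.60 ± 0.13 (SD, n = 3) with OTV:Malat1, 0.67 ± 0.09 (SD, n = 6) with anti-TfR:Malat1 and 0.19 ± 0.15 (SD, n = 4) with Malat1 ASO. In OTV:Malat1 animals Malat1 took a mean of 1.67% of oligodendrocyte UMIs, against 10.2% in saline. All 3 OTV:Malat1 animals lay above every saline animal (difference 2.27, exact p 0.0571, adjusted p 0.152) and above every anti-TfR:Malat1 animal (1.94, exact p 0.0238, adjusted p 0.127). All 6 anti-TfR:Malat1 animals lay above every saline animal (0.34, exact p 0.00952, adjusted p 0.127). These p-values too were the smallest possible. With the free oligonucleotide the difference was of the other sign, -0.14 (exact p 0.2, adjusted p 0.32), and 2 of 4 animals lay below every saline animal. Over neurons the margin was 1.25 ± 0.14 (SD, n = 3) with OTV:Malat1, 0.93 ± 0.19 (SD, n = 6) with anti-TfR:Malat1 and 0.84 ± 0.16 (SD, n = 4) with Malat1 ASO, differences from saline of 0.23, -0.09 and -0.18 (exact p 0.171, 0.314 and 0.229).

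The margins were also set beside the saline animal of the same batch. In Malat1 ASO all 4 animals lay above it over endothelial nuclei, by 0.10 to 0.70, and all 4 lay below it over oligodendrocytes (-0.25 to -0.04) and over neurons (-0.26 to -0.09). Moving labels within batches gave an exact p of 0.125 for each (adjusted p 0.286). In OTV:Malat1 all 3 animals lay above it over endothelial nuclei, oligodendrocytes and neurons (exact p 0.25, adjusted p 0.4 each). In anti-TfR:Malat1 5 of 5 did over endothelial nuclei (exact p 0.0833, adjusted p 0.286) and 6 of 6 over oligodendrocytes (exact p 0.0556, adjusted p 0.286), but 1 of 6 over neurons (exact p 0.444, adjusted p 0.508). Over fibroblast-like nuclei the signs were mixed in every group. The batches allow no exact p under 0.05 for any treatment against saline, so these tests could not pass.

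**Figure D5:**
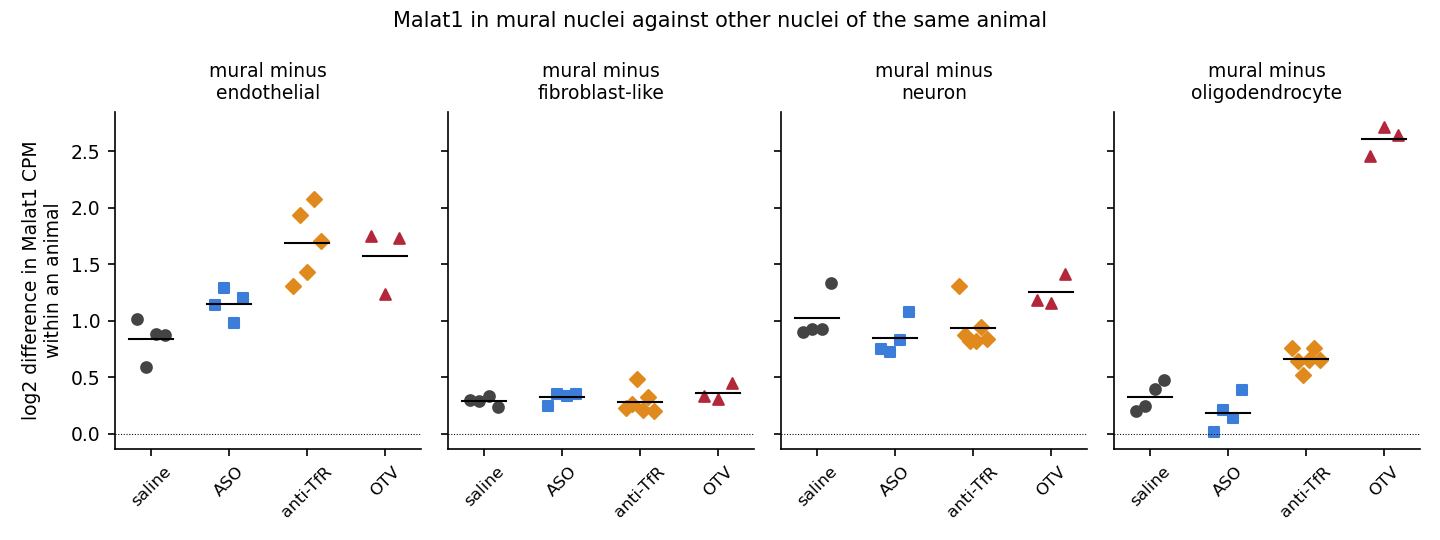
Difference in log2 CPM of Malat1 between mural nuclei and 4 other kinds of nucleus in the same animal (y axis), by group, 1 point per animal with the group mean as a line. Points above 0 have more Malat1 in mural nuclei; the OTV:Malat1 mean reaches 2.60 over oligodendrocytes, while the 4 means over fibroblast-like nuclei lie between 0.29 and 0.36.

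No gene other than Malat1 was called changed in mural nuclei with the filter on low counts, and Malat1 only with the batch block given above. Of 15025 genes with a UMI in a member, 421 beside Malat1 were abundant enough to test, and edgeR's quasi-likelihood test called 0% of them (0 genes) at an adjusted p of 0.05 in each treatment against saline (OTV:Malat1, then anti-TfR:Malat1, then Malat1 ASO) and between the conjugates. At an unadjusted p under 0.05 it gave 20 (4.75%), 20 (4.75%), 23 (5.46%) and 15 genes (3.56%) in those comparisons. With no filter, edgeR called 1 gene in OTV:Malat1 against saline, Trpm3, a cation channel (log2 difference -3.83, SE 0.792, adjusted p 0.0193), whose UMIs lay mostly in single nuclei of 3 animals. With the filter DESeq2 also called 0, with 12, 11, 11 and 10 genes at an unadjusted p under 0.05.

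The genes fitted include the 6 of the rule, whose UMIs chose the nuclei in every group, and nothing is read from their fits. By list, the genes tested were 4 of 14 matched pericyte genes, 14 of 24 of vessel tone, 4 of 19 of the basement membrane, 1 of 17 of Notch and angiopoietin (Maml2, a Notch coactivator) and 1 of 9 transporters (Slc30a10), none of which was called. No gene of the smooth muscle, PDGF and TGF-beta, injury, or RNA decay and uptake lists was abundant enough. In OTV:Malat1 against saline the median log2 change was 0.07 over the pericyte list, -0.07 over vessel tone and -0.12 over the basement membrane, beside 0.011 over all genes tested. In anti-TfR:Malat1 the medians were -0.10, -0.02 and -0.22 beside 0.0091, and in Malat1 ASO -0.36, -0.06 and -0.17 beside 0.013.

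Single genes are given as values, without a test for those of the rule. Vtn stood at 1624 ± 508 CPM with saline, 2350 ± 1188 with OTV:Malat1, 1783 ± 674 with anti-TfR:Malat1 and 1983 ± 629 with Malat1 ASO. Abcc9 stood at 805 ± 234, 1103 ± 275, 1274 ± 292 and 788 ± 201 CPM in the same order. Pdgfrb, the receptor that holds pericytes on vessels, ranged from 1036 to 1791 CPM over saline animals, 1390 to 1730 with OTV:Malat1, 1052 to 1878 with anti-TfR:Malat1 and 865 to 1768 with Malat1 ASO. Neat1, a nuclear RNA transcribed next to Malat1, was under the limit for testing and stood at 178 ± 92.7 CPM with saline, 270 ± 117 with OTV:Malat1, 166 ± 79.5 with anti-TfR:Malat1 and 258 ± 152 with Malat1 ASO, ranges that overlapped. Kcnj8 ranged from 115 to 363 CPM in 16 animals and stood at 878 in OTV:Malat1 replicate 2. St18, an oligodendrocyte gene, had log2 differences from saline of 1.78, 1.99 and 2.51 with OTV:Malat1, anti-TfR:Malat1 and Malat1 ASO (edgeR adjusted p 0.861, 0.857 and 0.561), beside the oligodendrocyte list values above.

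The share of nuclei that were mural did not separate the groups. It was 0.304%, 0.123%, 0.0967% and 0.123% in saline replicates 1 to 4, 0.120% to 0.167% with OTV:Malat1, 0.0682% to 0.282% with anti-TfR:Malat1 and 0.112% to 0.166% with Malat1 ASO. The 3 animals of batch 1 averaged 0.250%, against 0.124%, 0.102% and 0.114% in batches 2 to 4, and OTV:Malat1 had no animal in batch 1. The 4 comparisons gave differences of -0.0417 to 0.0199 percentage points (exact p 0.295 to 1, adjusted p 1). The direction of OTV:Malat1 against saline turned within batches, to 0.0255 percentage points, and without saline replicate 1 all 3 treatments lay above saline (0.0057 to 0.0255). A share of recovered nuclei also depends on how nuclei survive preparation and sorting, so it does not count cells in the tissue.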

How the data were processed

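Single nuclei from 17 animals were measured by 10x droplet sequencing. The deposited counts are UMIs per gene and nucleus, made with Cell Ranger 6.0.1 on mm10 and handled in Seurat 4 per the submitters' processing notes; the use of strand in counting is not given in the sources used here. From the authors' metadata came the cell type label, a doublet call, a batch number and fractions (the prediction score and the doublet score, from 0 to 1). The deposited tables of gene and nucleus names gave the order of the matrix. A further 8 metadata columns were not used.

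UMIs of mural nuclei were summed per animal (5 or more nuclei). Malat1 was compared by exact two-sided permutation tests on log2 (CPM + 1), with Benjamini-Hochberg adjustment over 6 comparisons (4 for the shares, 16 for the margins). All genes were fitted with edgeR 4.0.16 (quasi-likelihood, TMM, filterByExpr, all groups together, R 4.3.3), with DESeq2 1.42.0 as an alternative, and the scripts used numpy 2.4.6, scipy 1.17.1 and pandas 2.3.3. Adjusted p-values were called at 0.05. Each animal's Malat1 share rests on 12095 to 53818 UMIs. Gene positions came from GENCODE M21.

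The members and gene lists were chosen with earlier results of these data known. Named genes are Malat1, Neat1, Tfrc, the rule genes, listed genes by their level, and the 25 and 15 genes leading by ratio among those with a UMI in 20% of members; others named are said to be, or stand only as values. Deviations of the 4 pairs of saline and Malat1 ASO animals with the same title number, which share batches, correlated at 0.11 to 0.18. For the other groups same-number pairs ran from -0.27 to 0.18 (21 pairs in all). Pairs with different numbers ran from -0.30 to 0.34, with 18 of 85 over 0.1, so these values do not establish a pairing. The authors' doublets were kept. Some genes that the rule names are not reported here.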

Additional observations from a re-analysis of the deposited data

Results flagged for a closer look

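In 24 sets of 4 to 6 animals, 4 values stood far from the rest of their group, where chance gives about 1 set in 20. The mural share of nuclei was 0.304% in saline replicate 1 and 0.282% in anti-TfR:Malat1 replicate 1, each the highest of its group, and both animals are in batch 1. The margin of mural over neuronal nuclei in log2 CPM of Malat1 was 1.33 in saline replicate 4 and 1.30 in anti-TfR:Malat1 replicate 1, again the highest of each group.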

How the results depend on the processing

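The lower Malat1 of each treatment against saline kept its direction under every alternative run, and by exact permutation test none passed after adjustment. With batch as a block, edgeR passed the threshold, at -0.32 (OTV:Malat1), -0.26 (anti-TfR:Malat1) and -0.22 (Malat1 ASO). Among alternatives to that fit, chosen after seeing the data, calls were lost in nuclei of 1000 or more UMIs (-0.32, -0.14 and -0.07), with 4 or more mural UMIs for Malat1 ASO (-0.16), with no filter for OTV:Malat1 (-0.17), and without saline replicate 3 or Malat1 ASO replicate 4 for Malat1 ASO (-0.20 and -0.21; -0.25 to -0.20 over all animals left out). Leaving out animals gave -0.34 to -0.29 for OTV:Malat1 and -0.29 to -0.24 for anti-TfR:Malat1. The cause was not tested. With a replicate block by title number the exact differences were -0.40, -0.14 and -0.22 (exact p 0.25, 0.25 and 0.125), and edgeR with that block called no gene. For Malat1 ASO against saline, where animals of the same number share batches, that block changed no call.

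Differences near 0 turned sign. For Malat1, anti-TfR:Malat1 against Malat1 ASO was -0.069 in nuclei of 1000 or more UMIs, -0.015 as a mean over nuclei, -0.039 by edgeR and -0.036 by edgeR with the batch block, and -0.074 to 0.087 leaving out animals; edgeR gave 0.060 with the replicate block and -0.13 to 0.072 leaving out animals. OTV:Malat1 against anti-TfR:Malat1 by edgeR was 0.15 at 1000 or more UMIs, 0.051 with no filter and -0.17 to 0.020 leaving out animals. In the batch-block fit it was 0.0026 without doublets and 0.095 with no filter, and OTV:Malat1 against Malat1 ASO was 0.031 with no filter. The margin over fibroblast-like nuclei without doublets was -0.00039 (OTV:Malat1), 0.0023 (anti-TfR:Malat1) and -0.0027 between them. For anti-TfR:Malat1 it was 0.012 with 4 or more mural UMIs, 0.0059 with the replicate block and -0.045 to 0.011 leaving out animals. Over neurons, anti-TfR:Malat1 gave 0.13 at 1000 or more UMIs and -0.16 to 0.018 leaving out animals (0.018 without saline replicate 4). Over endothelial nuclei, the conjugates differed by 0.014 with the replicate block and -0.21 to 0.049 leaving out animals. The share of nuclei turned to 0.0255 within batches (OTV:Malat1 against saline), to -0.0028 between conjugates with the replicate block, and to 6.32 (OTV:Malat1) and 3.89 (Malat1 ASO) percentage points of the vascular label. Leaving out animals gave -0.0435 to 0.0255, -0.0741 to 0.0057 and -0.047 to 0.022 for OTV:Malat1, anti-TfR:Malat1 and Malat1 ASO, positive only without saline replicate 1. The depth difference between conjugates was 14.5 UMIs within batches. With no filter 1 gene was called in OTV:Malat1 against saline, and 0 in the other settings run.

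The numbers of nuclei limit these results: 12 to 46 mural and 3 to 20 endothelial nuclei per animal, and 421 of 15025 genes deep enough to test.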

Other observations

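Trpm3, the gene called only with no filter on low counts, had 135 UMIs in all members, 63 with saline, 41 with Malat1 ASO, 29 with anti-TfR:Malat1 and 2 with OTV:Malat1. Single nuclei held most of them. In saline replicate 1, 54 of 55 UMIs were in 1 nucleus, in Malat1 ASO replicate 4, 32 of 33, and in anti-TfR:Malat1 replicate 6, 23 of 24. Fibroblast-like nuclei held Trpm3 at 1100 to 10876 CPM in all 17 animals. It was singled out after its values were seen.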
